A study of Mus musculus with 12 samples.

Results

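The genes described here encode 10 G protein-coupled receptors through which B cells sense prostanoids, sphingosine 1-phosphate (S1P), an oxysterol and chemokines. They were chosen by name, with earlier results of these data known, as 10 of 26305 genes with an identifier. Ptgir, Ptger2 and Ptger4 encode receptors for prostacyclin and prostaglandin E2. S1pr1, S1pr2 and S1pr4 encode S1P receptors, Gpr183 encodes the receptor for an oxysterol made from cholesterol, and Ccr7, Cxcr4 and Cxcr5 encode receptors for the chemokines of lymph node T zones, bone marrow and B cell follicles.

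These receptors are known to guide B cells between and within lymphoid organs. The chemokine receptors, Gpr183 and S1pr1 act mainly through G proteins of the Gi class and drive movement toward their ligand; S1pr1 carries lymphocytes out of lymph nodes into blood and lymph. S1pr2 acts through Gα13 and holds cells inside germinal centres. The prostacyclin receptor and the prostaglandin E2 receptors of Ptger2 and Ptger4 act through Gs, which raises cyclic AMP.

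RNA was measured in EMRK1184luc cells, a B cell lymphoma line from a female mouse carrying the Eµ-Myc transgene, in which an immunoglobulin enhancer drives Myc in the B lineage. All cells of the study carried a lentiviral luciferase construct and came from this 1 line. The groups were 5 µM WM-1119 for 3 days, 5 µM WM-1119 for 6 days, DMSO for 3 days and DMSO for 6 days, with 3 libraries each; WM-1119 inhibits histone acetyltransferases of the MYST family, and DMSO is its vehicle. The comparison asked how this inhibition changed transcription in the lymphoma cells.

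Libraries held 14736267 to 41749357 counts. Transcripts of B cells were plentiful. The summed level of 9 B cell markers was 3012 to 3224 CPM (counts scaled to a common library size) in WM-1119 libraries and 2905 to 3100 CPM in DMSO libraries. Of these Ms4a1, which encodes CD20, was at or near 0. The sum does not show single markers, which moved both ways. At 6 days Cd79b had 392 to 419 CPM in WM-1119 libraries, against 287 to 294 CPM in DMSO libraries. Pax5 had 86.6 to 93.2 CPM at that time, against 132.5 to 137.3 CPM. Some fibroblast transcripts stood out in 5 libraries, picked by over 1 CPM of the collagen gene Col1a1. With WM-1119 these were replicate 2 of 3 days (1.89 CPM) and replicates 1 and 2 of 6 days (6.83 and 12.9 CPM). With DMSO they were replicates 1 and 2 of 6 days (6.10 and 2.08 CPM). The fibroblast marker Dcn did not follow Col1a1, with 0 counts in WM-1119 replicate 2 of 6 days. Dcn was highest, at 0.406 CPM, in DMSO replicate 3 of 6 days, where Col1a1 was at 0.488 CPM. Lum, another marker, had at most 2 counts in any library. The 10 fibroblast markers summed to 1.57 to 5.06 CPM in WM-1119 libraries and 1.82 to 2.60 CPM in DMSO libraries at 3 days, and to 0.817 to 37.2 CPM and 1.30 to 16.4 CPM at 6 days. Calls that were lost without these 5 libraries are given with each receptor, and the part of fibroblast RNA in them was not tested. Removal of the 5 libraries leaves 1 library a group at 6 days, where a call can be lost though the log2 value stays. The 9 macrophage markers summed to 139 to 161 CPM in WM-1119 libraries, against 173 to 180 CPM in DMSO libraries; nearly all of it was Itgam and Mrc1, and C1qa, C1qb and C1qc were at 0 counts in all 12 libraries, while Csf1r had 3.62 to 4.97 CPM in WM-1119 libraries, against 0.569 to 1.16 CPM in DMSO libraries. The part of these transcripts in the results was not tested. In RNA from a whole culture, a lower level in every cell and fewer cells that hold the transcript cannot be told apart.

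Of the 10 receptors, 7 had enough counts to be tested. At 3 days 2 were higher with WM-1119 (Ptgir and Cxcr4) and 1 was lower (Ccr7) at an adjusted p below 0.05 in edgeR's quasi-likelihood test; over all 11997 genes tested 24.4% were called there, that is 11.8% higher and 12.6% lower. At 6 days 4 receptors were higher (Ptgir, Cxcr4, Ptger4 and S1pr4) and 1 was lower (Ccr7), where 30.8% of all genes were called, 15.7% higher and 15.1% lower. The 3 WM-1119 libraries lay wholly above or below the 3 DMSO libraries for 3 of the 7 receptors at 3 days, where 39.9% of all genes did (19.5% above and 20.4% below), and for 5 of the 7 at 6 days, where 41.3% did (21.4% above and 19.9% below). The median log2 fold change of the 7 receptors was 0.09 at 3 days and 0.23 at 6 days, beside medians of 0.002 and -0.004 over all genes tested. With 7 genes, chosen with earlier results of these data known, these shares describe the set only.

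**Figure D1:**
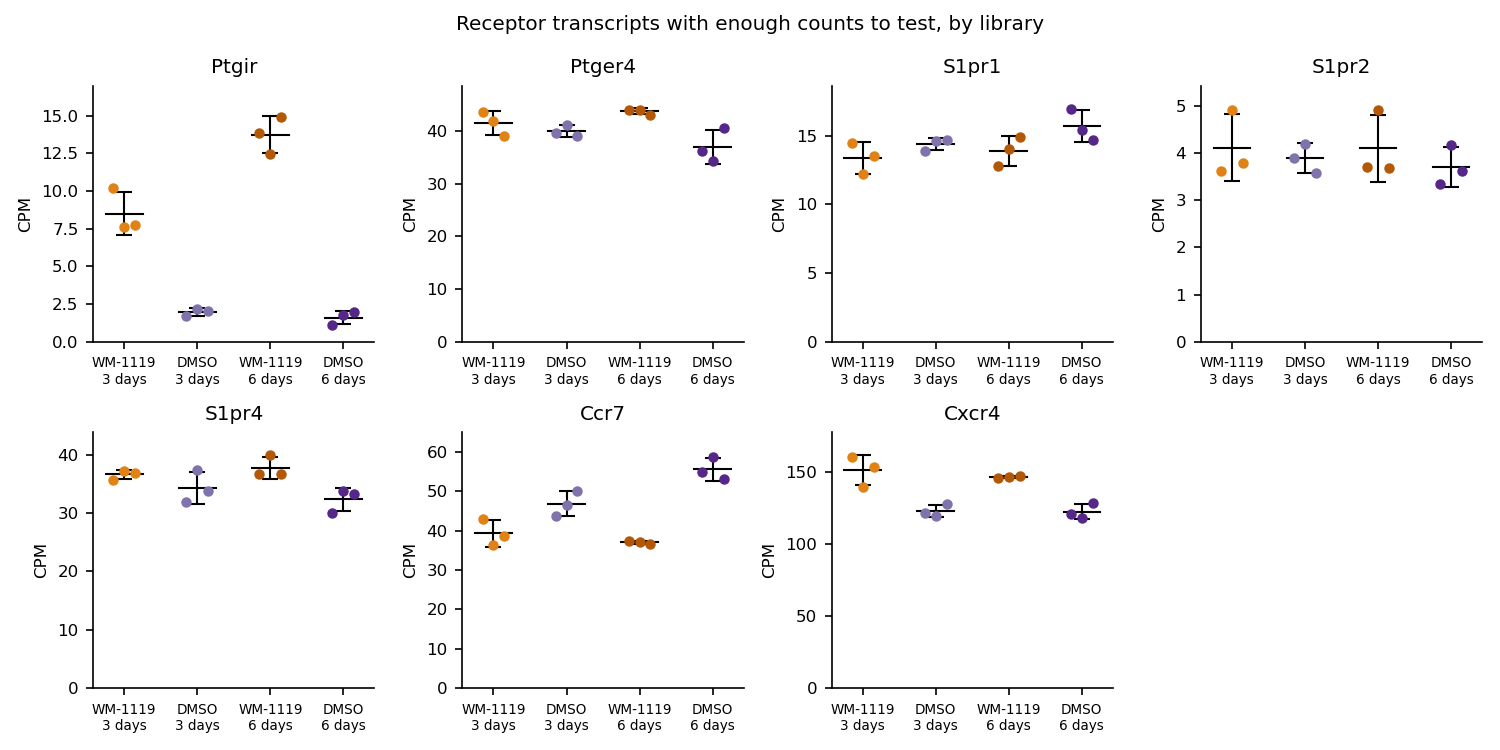
Level of the 7 tested receptors in CPM (vertical axes, each starting at 0) in the 12 libraries, by treatment and time. Points are libraries, and bars give the mean ± SD of 3. Ptgir sits at 7.61 to 14.9 CPM in WM-1119 libraries and at 1.10 to 2.17 CPM in DMSO libraries, and the treatments overlap at both times for S1pr1 and S1pr2.

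Ptgir was the tested receptor with the largest fold change at both times. Its transcript stands on chromosome 7 at positions 16906490 to 16910905 of the mm10 build, and its start and those of the other 3 receptors that rose at 6 days are shown here as the 250 bases before the RefSeq start of the gene, read 5′ to 3′ on the strand of the gene (RefSeq, build GRCm38.p6), because these are the members that moved in the same direction. Ptgir lies on the plus strand (chr7:16906240-16906489), Cxcr4 on the minus strand (chr1:128592300-128592549), Ptger4 on the minus strand (chr15:5244188-5244437) and S1pr4 on the minus strand (chr10:81500138-81500387). Capitals mark a match to CCACCC or its reverse complement GGGTGG, the letters that KLF transcription factors bind.

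Ptgir: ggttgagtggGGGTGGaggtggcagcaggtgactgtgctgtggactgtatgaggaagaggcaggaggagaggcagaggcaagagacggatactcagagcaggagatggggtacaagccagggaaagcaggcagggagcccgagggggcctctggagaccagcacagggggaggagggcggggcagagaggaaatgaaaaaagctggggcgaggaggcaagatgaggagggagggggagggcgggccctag

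Cxcr4: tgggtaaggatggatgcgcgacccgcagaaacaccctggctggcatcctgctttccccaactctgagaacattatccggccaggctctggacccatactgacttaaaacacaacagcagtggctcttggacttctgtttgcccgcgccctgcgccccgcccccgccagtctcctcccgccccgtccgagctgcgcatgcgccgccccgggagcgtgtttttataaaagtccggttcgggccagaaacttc

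Ptger4: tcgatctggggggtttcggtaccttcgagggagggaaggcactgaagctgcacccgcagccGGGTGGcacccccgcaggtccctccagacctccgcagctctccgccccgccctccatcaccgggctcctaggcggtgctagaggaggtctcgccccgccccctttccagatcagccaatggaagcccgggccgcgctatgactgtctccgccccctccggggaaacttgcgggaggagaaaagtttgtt

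S1pr4: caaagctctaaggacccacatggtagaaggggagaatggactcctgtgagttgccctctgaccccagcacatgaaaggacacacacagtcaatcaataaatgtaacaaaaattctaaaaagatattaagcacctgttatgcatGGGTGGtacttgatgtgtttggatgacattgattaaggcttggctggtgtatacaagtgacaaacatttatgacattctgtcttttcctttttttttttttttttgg

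Ptgir, Ptger4 and S1pr4 each held 1 match and Cxcr4 held none. Of 32536 mouse promoters of this length 28.1% held at least 1. S1pr2, Ptger2 and Gpr183, the other receptors with a promoter sequence, held none. The 4 windows shown were picked by the rise at 6 days, so the share beside them is no test of a link. None of the 4 held the E-box CACGTG (6.04% of all promoters), the cyclic AMP response element core TGACG (17.9%), the FOXO letters GTAAACA (3.17%) or the octamer ATGCAAAT (1.62%), on either strand. The 4 sequences differ in base composition. G and C make up 63.6% of the Ptgir window, 61.2% of that of Cxcr4, 66.8% of that of Ptger4 and 38.8% of that of S1pr4, and CpG occurs 5, 19, 19 and 0 times in that order. A match describes these letters and does not show binding.

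Of Ptgir, Ptger2 and Ptger4, Ptgir rose at both times and Ptger4 at 6 days, and Ptger2 was too scarce to test. Ptgir, whose product is the prostacyclin receptor, had 10.2, 7.61 and 7.71 CPM in WM-1119 libraries at 3 days, against 1.72, 2.17 and 2.04 CPM in DMSO libraries. At 6 days it had 13.8, 12.4 and 14.9 CPM in WM-1119 libraries, against 1.10, 1.77 and 1.95 CPM in DMSO libraries. Each WM-1119 library lay above each DMSO library, and each WM-1119 library of 6 days above each of 3 days.

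The mean of Ptgir was 8.50 ± 1.45 CPM with WM-1119 and 1.98 ± 0.234 CPM with DMSO at 3 days (SD, n = 3 each), and the log2 fold change was 2.09 ± 0.18 (SE), or 4.27-fold (edgeR, adjusted p = 1.99e-08). At 6 days the means were 13.7 ± 1.24 CPM with WM-1119 and 1.61 ± 0.450 CPM with DMSO, and the log2 fold change was 3.15 ± 0.18, or 8.89-fold (adjusted p = 7.83e-12). The DMSO means rest on 118 counts over the libraries of 3 days and 133 over those of 6 days. Among all genes Ptgir ranked at place 100 by p at 3 days and at place 37 at 6 days.

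Within WM-1119 libraries Ptgir was higher at 6 days than at 3 days by 0.70 ± 0.14 on the log2 scale (edgeR, adjusted p = 0.00572), the single receptor called of the 7; 5.62% of all genes were called in that comparison, 2.33% higher and 3.29% lower. Without WM-1119 replicate 2 of 3 days this call was lost (log2 0.62, adjusted p = 0.05). Within DMSO libraries the log2 difference of Ptgir was -0.36 ± 0.23 (adjusted p = 0.539). The log2 effect of WM-1119 at 6 days minus that at 3 days was 1.06 ± 0.27, with a 95% interval of 0.50 to 1.62, and did not pass the threshold (adjusted p = 0.0865). In that difference edgeR called 0 of the 7 receptors, beside 0.725% of all genes (0.4% higher and 0.325% lower). The unadjusted p of edgeR was below 0.05 for 2 receptors, Ptgir at 0.000779 and Ccr7 at 0.00232. DESeq2 called Ptgir alone (adjusted p = 0.0365).

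Ptger4, which encodes a prostaglandin E2 receptor, had 43.7, 41.95 and 39.0 CPM in WM-1119 libraries at 3 days, against 39.7, 41.2 and 39.1 CPM in DMSO libraries, and the groups overlapped. In libraries of 6 days it had 44.1, 44.1 and 43.1 CPM with WM-1119, against 36.3, 34.3 and 40.6 CPM with DMSO, without overlap. The log2 fold change was 0.06 ± 0.07 at 3 days (edgeR, adjusted p = 0.589) and 0.24 ± 0.07 at 6 days (adjusted p = 0.00705), a 1.18-fold rise. The difference between the times was 0.19, with a 95% interval of -0.01 to 0.38 (adjusted p = 0.633). The rise at 6 days was not called without the 5 libraries with Col1a1, which leaves 1 library a group at that time (log2 0.09, adjusted p = 0.706).

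Ptger2 (chromosome 14, 44988111 to 45003820), the other Gs-coupled prostaglandin E2 receptor gene of the set, was close to the limit of detection and was not tested. It had 2, 7 and 4 counts in WM-1119 libraries of 3 days and 4, 5 and 6 counts in those of 6 days, against 3, 9 and 9 counts and 22, 19 and 10 counts in DMSO libraries of 3 and 6 days. When genes with low counts were kept, its log2 fold change was -0.84 ± 0.60 at 3 days (adjusted p = 0.429) and -0.93 ± 0.52 at 6 days (adjusted p = 0.227), so no difference was detectable at this depth.

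Levels of different genes were compared per length, as RPKM, the CPM per kilobase of exon, from the exon lengths in the deposited table. Ptgir made up 17.1%, 13.8% and 14.9% of the summed level of Ptgir, Ptger2 and Ptger4 in WM-1119 libraries of 3 days, against 3.70%, 4.44% and 4.40% in DMSO libraries. The share at 6 days was 21.75%, 20% and 23.4% in WM-1119 libraries, against 2.59%, 4.32% and 4.07% in DMSO libraries. Ptger4 thus stayed the main prostanoid receptor transcript of the 3 in all 12 libraries. The summed level of the 3 was 16.6 ± 1.15 RPKM with WM-1119 and 14.2 ± 0.424 RPKM with DMSO at 3 days, and 19.0 ± 0.249 RPKM and 13.1 ± 1.09 RPKM at 6 days (SD, n = 3 each).

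**Figure D2:**
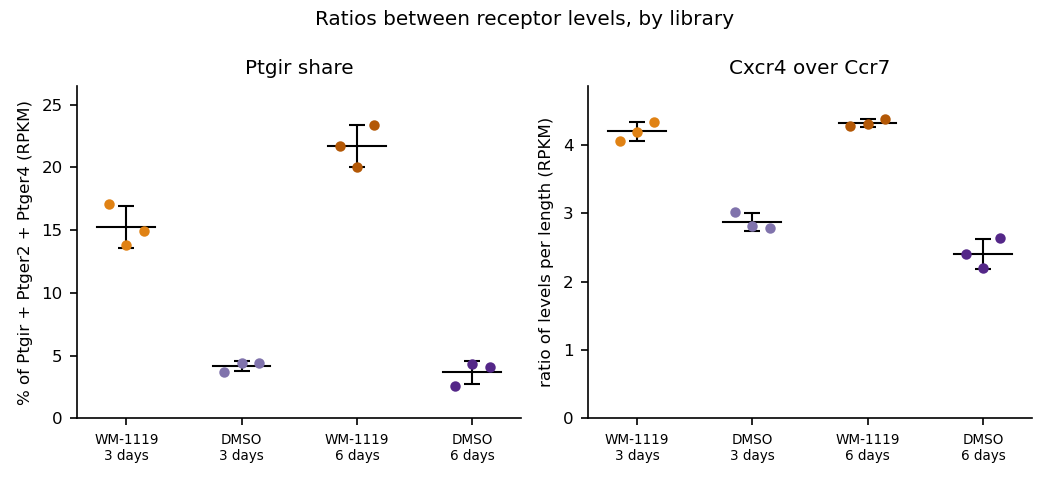
Left, share of Ptgir in the summed level per length of Ptgir, Ptger2 and Ptger4, in percent; right, level per length of Cxcr4 divided by that of Ccr7. Points are libraries and bars the mean ± SD of 3; both axes start at 0. The share of Ptgir was 13.8% to 23.4% in WM-1119 libraries and 2.59% to 4.44% in DMSO libraries, and the ratio was 4.06 to 4.38 in WM-1119 libraries and 2.20 to 3.02 in DMSO libraries.

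The chemokine receptors moved in opposite directions. Cxcr4, the receptor for CXCL12 that retains B cell precursors in bone marrow, had 160, 140 and 154 CPM in WM-1119 libraries at 3 days, against 122, 120 and 128 CPM in DMSO libraries. The 6-day levels of Cxcr4 were 146, 146 and 148 CPM in WM-1119 libraries, against 121, 118 and 128 CPM in DMSO libraries. At both times the WM-1119 libraries all lay above the DMSO libraries. The log2 fold change was 0.30 ± 0.05 at 3 days (1.23-fold; edgeR, adjusted p = 0.000154) and 0.26 ± 0.05 at 6 days (1.20-fold, adjusted p = 0.000448), and the difference between the times was -0.04, with a 95% interval of -0.19 to 0.11 (adjusted p = 0.943). The call at 6 days was lost without the 5 libraries with Col1a1 (log2 0.20, adjusted p = 0.148).

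Ccr7 (chromosome 11, 99144199 to 99155077), the receptor for CCL19 and CCL21 that draws lymphocytes into the T zone, had 43.0, 36.3 and 38.5 CPM in WM-1119 libraries at 3 days, against 43.8, 46.4 and 50.1 CPM in DMSO libraries. The 6-day levels of Ccr7 were 37.3, 37.0 and 36.7 CPM in WM-1119 libraries, against 55.0, 58.7 and 53.0 CPM in DMSO libraries. The WM-1119 libraries all lay below the DMSO libraries, by a narrow gap at 3 days, where the highest WM-1119 library had 43.0 CPM and the lowest DMSO library 43.8 CPM. Ccr7 fell by 0.26 ± 0.07 on the log2 scale at 3 days (edgeR, adjusted p = 0.00775) and fell by 0.59 ± 0.07 at 6 days (1.501-fold lower, adjusted p = 6.23e-07). The call at 3 days was lost without WM-1119 replicate 2 of that time (log2 -0.20, adjusted p = 0.0708), 1 of the libraries with Col1a1, and without all 5 of them (adjusted p = 0.0829).

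Ccr7 also had a higher level in DMSO libraries of 6 days than in those of 3 days, with no overlap. Its log2 difference of 0.25 ± 0.07 did not pass the threshold (edgeR, adjusted p = 0.0749). S1pr1 did not overlap there either, by a narrow gap from 14.65 to 14.67 CPM (log2 0.13, adjusted p = 0.571). The share of all genes without overlap was not taken for DMSO libraries of 6 against 3 days. In that comparison edgeR called 0 of the 7 receptors, beside 0.809% of all genes (0.358% higher and 0.45% lower). Ccr7 was the single receptor whose unadjusted p, at 0.000993, was below 0.05, and DESeq2 called it (adjusted p = 0.0487). Between the WM-1119 groups its log2 difference was -0.08 ± 0.07 (adjusted p = 0.523). The difference of the WM-1119 effect between the times was -0.33, with a 95% interval of -0.53 to -0.13 (adjusted p = 0.174).

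The opposite moves of Cxcr4 and Ccr7 widened their ratio. Per length, Cxcr4 was 4.06, 4.19 and 4.34 times as high as Ccr7 in WM-1119 libraries of 3 days, against 3.02, 2.81 and 2.78 times in DMSO libraries. At 6 days the ratio was 4.27, 4.30 and 4.38 in WM-1119 libraries, against 2.40, 2.20 and 2.63 in DMSO libraries. The groups did not overlap at either time, which follows from the separation of each gene and is no further result.

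Cxcr5 (chromosome 9, 44511787 to 44526444), which guides B cells into follicles, had 12, 21 and 2 counts in WM-1119 libraries of 3 days and 6, 3 and 7 counts in those of 6 days, against 8, 5 and 1 counts and 8, 8 and 2 counts in DMSO libraries of 3 and 6 days. It was not tested. With genes of low counts kept, its log2 fold change was 1.14 ± 0.60 at 3 days (edgeR, adjusted p = 0.225) and 0.65 ± 0.65 at 6 days (adjusted p = 0.553). Cxcr5 overlaps Bcl9l over 120 bases, and its reads are uncertain where the strand setting of the counting is unstated.

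Among the S1P receptors the changes were small. S1pr4, a receptor found mainly on blood and lymphoid cells, had 35.7, 37.2 and 36.9 CPM in WM-1119 libraries at 3 days, against 31.9, 37.3 and 33.8 CPM in DMSO libraries. At 6 days it had 36.7, 39.9 and 36.6 CPM in WM-1119 libraries, against 30.0, 33.7 and 33.2 CPM in DMSO libraries. The groups overlapped at 3 days and not at 6 days.

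The log2 fold change of S1pr4 was 0.09 ± 0.07 at 3 days (edgeR, adjusted p = 0.355) and 0.23 ± 0.07 at 6 days (1.17-fold, adjusted p = 0.014). This rise depended on single libraries: it was not called without WM-1119 replicate 2 (log2 0.18, adjusted p = 0.0999) or DMSO replicate 1 of 6 days (log2 0.18, adjusted p = 0.0936), nor without the 5 libraries with Col1a1 (log2 0.14, adjusted p = 0.544). S1pr4 made up 72.2% ± 1.00 of the summed level per length of the 3 S1P receptors with WM-1119 and 70.0% ± 1.08 with DMSO at 3 days, and 72.3% ± 1.21 and 67.5% ± 2.30 at 6 days (SD, n = 3 each).

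S1pr1 (chromosome 3, 115710433 to 115715055), the receptor of egress from lymph nodes, had 14.5, 12.2 and 13.5 CPM in WM-1119 libraries at 3 days, against 13.9, 14.6 and 14.7 CPM in DMSO libraries. The 6-day levels of S1pr1 were 12.8, 14.02 and 14.9 CPM in WM-1119 libraries, against 16.9, 15.4 and 14.7 CPM in DMSO libraries. The groups overlapped at both times, and neither log2 fold change passed the threshold, with -0.11 and a 95% interval of -0.30 to 0.09 at 3 days (edgeR, adjusted p = 0.442) and -0.18 and an interval of -0.37 to 0.01 at 6 days (adjusted p = 0.143).

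S1pr2 (chromosome 9, 20965952 to 20976793), the receptor that confines cells to germinal centres, had 3.62, 4.92 and 3.78 CPM in WM-1119 libraries at 3 days, against 3.90, 4.20 and 3.58 CPM in DMSO libraries. The 6-day levels of S1pr2 were 3.71, 4.92 and 3.68 CPM in WM-1119 libraries, against 3.34, 4.17 and 3.62 CPM in DMSO libraries. Replicate 2 was the highest library in each of the 4 groups, and all of these but DMSO replicate 2 of 3 days had over 1 CPM of Col1a1. WM-1119 replicate 1 and DMSO replicate 1 of 6 days, which also had over 1 CPM of Col1a1, were the middle and the lowest library of their groups. The groups overlapped, and the log2 fold changes were 0.10, with a 95% interval of -0.25 to 0.44, at 3 days (edgeR, adjusted p = 0.735) and 0.17, with an interval of -0.19 to 0.52, at 6 days (adjusted p = 0.495).

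**Figure D3:**
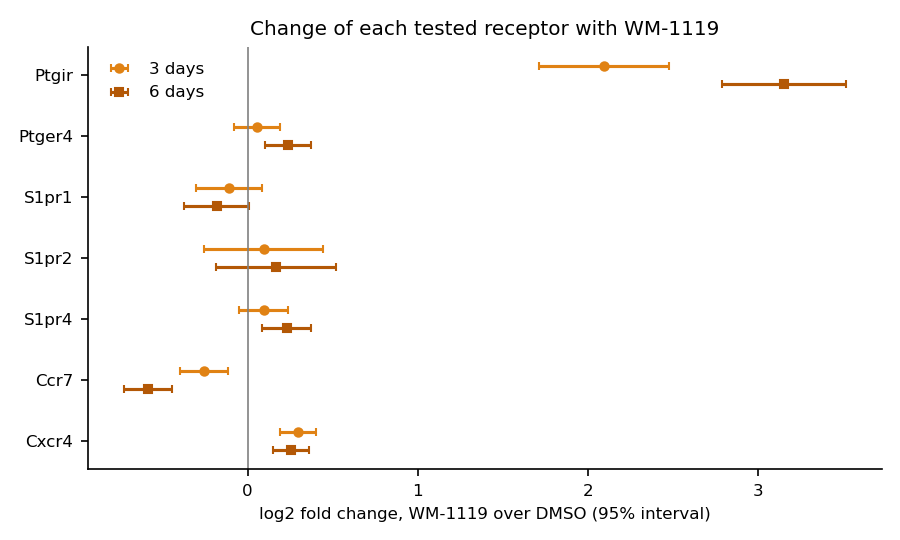
Log2 fold change of the 7 tested receptors, WM-1119 over DMSO, at 3 days (circles) and 6 days (squares), with the 95% interval of the edgeR fit. Ptgir stands at 2.09 and 3.15, Ccr7 at -0.26 and -0.59, and the intervals of S1pr1 and S1pr2 cross 0 at both times.

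Gpr183 (chromosome 14, 121952331 to 121965193), which positions B cells along gradients of an oxysterol, was at the limit of detection. It had 0, 6 and 0 counts in WM-1119 libraries of 3 days and 4, 0 and 2 counts in those of 6 days, against 12, 5 and 6 counts and 13, 8 and 5 counts in DMSO libraries of 3 and 6 days. In CPM the WM-1119 libraries of 3 days all lay below the DMSO libraries of that time, and a count of 0 allows up to 3 counts, from counting error alone. With genes of low counts kept, the difference was not called at 3 days (edgeR, adjusted p = 0.0509) or 6 days (adjusted p = 0.295). Without the 5 libraries with Col1a1 the gene was tested and called lower at 3 days (adjusted p = 0.00633), where both WM-1119 libraries that stay are at 0 counts, so no fold is given. Gpr183 lies within the gene Ubac2, which it overlaps over 12863 bases, and its reads are uncertain where the counting may not have used strand.

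Ordered by level per length, Cxcr4 was the most abundant receptor transcript in each group, with 83.3 ± 5.74 RPKM in WM-1119 libraries and 67.9 ± 2.31 RPKM in DMSO libraries at 3 days, and 80.8 ± 0.413 and 67.6 ± 2.78 RPKM at 6 days. Ccr7, S1pr4, Ptger4 and S1pr1 followed in this order in all 4 groups. The library ranges of S1pr4 and Ptger4 overlapped in both DMSO groups and in neither WM-1119 group. Ptgir was in place 6 with WM-1119, at 2.55 ± 0.434 RPKM at 3 days and 4.12 ± 0.371 RPKM at 6 days, where its range overlapped that of S1pr1 (4.59 ± 0.356 RPKM). In DMSO libraries it was in place 7, below S1pr2, at 0.593 ± 0.0702 RPKM at 3 days and 0.482 ± 0.135 RPKM at 6 days. The 3 scarcest, Ptger2, Gpr183 and Cxcr5, overlapped each other at neighbouring places in all 4 groups, and the highest of them lay below the receptor in place 7 without overlap.

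**Figure D4:**
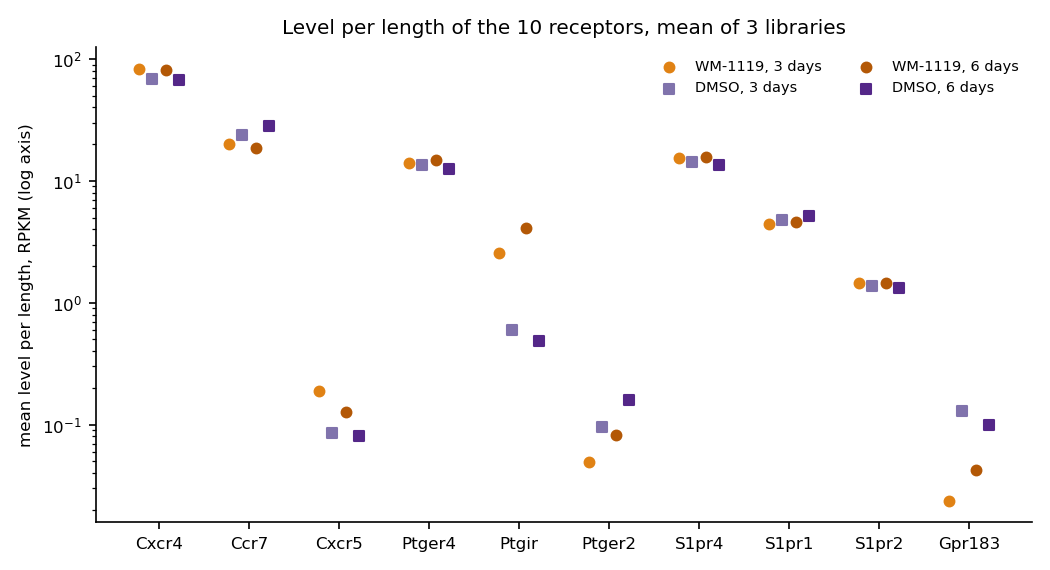
Mean level per length of the 10 receptors in RPKM (log axis), by group; circles are WM-1119 and squares DMSO, means of 3 libraries. Cxcr4 lies between 67.6 and 83.3, and Ptger2, Gpr183 and Cxcr5 all lie below 0.2 RPKM.

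The genes most like each called receptor were found by the Pearson correlation of log2 CPM over the 12 libraries, among 9492 genes that averaged 5 CPM or more. The libraries share their treatment groups, so genes that differ between the groups resemble each other by this measure, and the values are a description. Ptgir was most like Grk2 (r = 0.994), which encodes a kinase that phosphorylates active G protein-coupled receptors, and Eci2 (r = 0.992). Ccr7 was most like Lmo2 (r = 0.960) and Actr1b (r = 0.959), and Cxcr4 most like Lgmn (r = 0.970) and Rassf2 (r = 0.968). Ptger4 was most like Xbp1 (r = 0.936) and Gmfg (r = 0.908), and S1pr4 most like Rpusd1 (r = 0.954) and Vav1 (r = 0.949). Between receptors, r over the 12 libraries was 0.91 for Ptgir and Cxcr4 and -0.88 for Ptgir and Ccr7.

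Genes of the same pathways were taken from lists chosen with earlier results of these data known. The counts of each list stand beside the shares over all genes tested and describe the list only. At 3 days 11.8% of all genes were called higher and 12.6% lower; for 6 days the shares were 15.7% and 15.1%. Among 14 tested of 18 regulators of G proteins and receptors, 8 rose and 2 fell with WM-1119 at 3 days, and 11 rose and 2 fell at 6 days. Their median log2 fold change was 0.29 at 3 days and 0.30 at 6 days, beside 0.002 and -0.004 over all genes tested. Grk2 had 1213, 1176 and 1165 CPM in WM-1119 libraries at 3 days, against 933, 990 and 973 CPM in DMSO libraries, and 1244, 1282 and 1290 CPM against 923, 953 and 984 CPM at 6 days, without overlap at either time. Its log2 fold change was 0.30 ± 0.04 at 3 days (edgeR, adjusted p = 1.02e-05) and 0.42 ± 0.04 at 6 days (adjusted p = 4.97e-08).

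RGS proteins, which speed the shutdown of active Gα subunits, were among the regulators that rose. Rgs10 averaged 4.90 ± 0.255 CPM with WM-1119 and 1.10 ± 0.346 CPM with DMSO at 6 days (log2 2.15, adjusted p = 3.1e-08), and Rgs14 averaged 20.5 ± 0.285 CPM and 10.5 ± 0.648 CPM (log2 0.98, adjusted p = 4.96e-09). Rgs16 rose by 1.01 at 3 days and 0.71 at 6 days on the log2 scale (adjusted p = 6.91e-08 and 7.13e-06). The 2 regulators that fell at both times were Rgs2, by log2 values of -0.42 at 3 days and -0.19 at 6 days (adjusted p = 2.31e-05 and 0.0204), and Arhgef12, by -0.36 and -0.24 (adjusted p = 3.13e-05 and 0.00133). Rgs1, a regulator known from germinal centre B cells, had at most 2 counts in any library and was not tested. Arhgef1, an exchange factor that acts with Gα13 downstream of S1pr2, rose by 0.32 at 3 days and 0.30 at 6 days on the log2 scale (adjusted p = 3.63e-06 and 5.25e-06).

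Of the 20 G protein subunits, 17 passed the filter. At 3 days 3 of them rose and 5 fell (Gnas, Gnaq, Gna13, Gnb4 and Gng12); at 6 days 4 rose and 5 fell (Gnas, Gnaq, Gna13, Gng10 and Gng12). Of all genes tested 24.4% were called at 3 days and 30.8% at 6 days, and the median log2 fold change of the subunits was -0.09 and -0.07. Gnai2, the main Gi subunit of lymphocytes, through which chemokine receptors act, averaged 471 ± 9.61 CPM with WM-1119 and 404 ± 2.14 CPM with DMSO at 3 days (log2 0.22, edgeR, adjusted p = 0.000235) and 488 ± 7.58 and 407 ± 15.2 CPM at 6 days (log2 0.26, adjusted p = 2.82e-05). Gna15, a subunit of the Gq class of blood cells, rose by 0.74 at 3 days and 0.96 at 6 days on the log2 scale (adjusted p = 3.36e-08 and 2.94e-10). Gnas, the Gs subunit used by the prostacyclin receptor, fell by 0.15 at 3 days and fell by 0.16 at 6 days on the log2 scale (adjusted p = 0.0176 and 0.00767), and the call at 3 days was lost without WM-1119 replicate 2 or 3 or DMSO replicate 2 of that time (highest adjusted p = 0.0924), and without the 5 libraries with Col1a1 (adjusted p = 0.103). Gna13, the subunit used by S1pr2, fell by 0.17 at 3 days and fell by 0.32 at 6 days (adjusted p = 0.0155 and 4.05e-05), with the call at 3 days lost without WM-1119 replicate 2 or DMSO replicate 1 (adjusted p = 0.0645 and 0.074). Without the 5 libraries with Col1a1, which leaves 1 library a group at 6 days, the calls of Gnas and Gna13 at that time were lost (log2 -0.21 and -0.17). Gnas overlaps the antisense gene Gnasas1 over 11117 bases, and its reads are uncertain where strand is not given.

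The list of cyclic AMP metabolism and response had 21 tested genes of 27. At 3 days 2 rose (Adcy7 and Prkacb) and 4 fell (Adcy6, Pde7a, Pde7b and Rapgef3). At 6 days 5 rose (Adcy7, Prkacb, Pde3b, Pde4a and Pde8a) and 5 fell (Adcy6, Pde7a, Rapgef3, Prkar1a and Crem), with medians of -0.08 and -0.05 on the log2 scale. The counts at 3 days were near the shares over all genes, 11.8% higher and 12.6% lower, and at 6 days those shares were 15.7% and 15.1%. Adcy6, an adenylyl cyclase gene, had the largest change of the list at a low level. It averaged 0.821 ± 0.332 CPM with WM-1119 and 2.06 ± 0.362 CPM with DMSO at 3 days (log2 -1.27, edgeR, adjusted p = 0.00134). At 6 days the means were 0.547 ± 0.130 and 1.61 ± 0.0943 CPM (log2 -1.545, adjusted p = 0.000656). The 6-day call was lost without the 5 libraries with Col1a1 (log2 -1.46), which leaves 1 library a group. Adcy7, an adenylyl cyclase of blood cells, averaged 78.4 ± 6.89 CPM with WM-1119 and 59.3 ± 0.245 CPM with DMSO at 3 days (log2 0.41, edgeR, adjusted p = 3.3e-05) and 77.5 ± 3.25 and 53.7 ± 2.68 CPM at 6 days (log2 0.53, adjusted p = 6.96e-07). Rapgef3 encodes the cyclic AMP-activated exchange factor EPAC and overlaps the noncoding gene Rapgef3os2 over 6842 bases. It fell by 0.79 at 3 days and fell by 1.11 at 6 days on the log2 scale (edgeR, adjusted p = 4.07e-06 and 4.26e-08). Pde3b, a phosphodiesterase that degrades cyclic AMP, was called at 6 days (log2 0.33, adjusted p = 0.000115) and not at 3 days (log2 0.06, adjusted p = 0.503); the difference between the times was 0.27 and was not called (adjusted p = 0.204).

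Transcription factors and partners of lymphocyte traffic numbered 16, of which 15 were tested. At 3 days 7 rose and 4 fell, among them Bcl6, Rap1a and Rap1b, and at 6 days 10 rose and 3 fell, among them Bcl6 and Rap1a, where 24.4% of all genes were called at 3 days and 30.8% at 6 days. Rasgrp2, which activates Rap GTPases in the step from chemokine receptor to integrin and overlaps the noncoding gene Gm14965 over 5817 bases, rose by 0.85 at 3 days and 0.99 at 6 days on the log2 scale (edgeR, adjusted p = 2.71e-11 and 1.35e-12). Itgal, the α chain of the integrin LFA-1, averaged 263 ± 16.1 CPM with WM-1119 and 160 ± 1.26 CPM with DMSO at 3 days (adjusted p = 2.8e-10) and 260 ± 8.70 and 151 ± 4.06 CPM at 6 days (adjusted p = 3.1e-11). Rassf5, an effector of Rap, rose by 0.36 at 3 days and 0.52 at 6 days. Coro1a, an actin regulator needed for lymphocyte traffic, rose by 0.41 and 0.43 (edgeR, adjusted p at most 3.13e-06 for both genes). Rassf5 overlaps the gene Eif2d over 11250 bases, and its reads are uncertain where strand is not given.

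Bcl6, the germinal centre transcription factor, fell by 1.18 at 3 days and fell by 0.85 at 6 days on the log2 scale (edgeR, adjusted p = 0.000453 and 0.00546). Klf2, a factor known to drive S1pr1 in lymphocytes, had 18.9 ± 1.36 CPM with WM-1119 and 22.5 ± 3.01 CPM with DMSO at 3 days, and 21.3 ± 1.10 and 18.9 ± 3.27 CPM at 6 days, with overlapping libraries and no call (adjusted p = 0.124 and 0.266). Without DMSO replicate 3 of 6 days it was called lower at 3 days (log2 -0.25, adjusted p = 0.0404) and higher at 6 days (log2 0.32, adjusted p = 0.0166), and without DMSO replicate 1 of 3 days lower at 3 days (log2 -0.36, adjusted p = 0.0305). Foxo1 was called at 6 days (log2 0.24, adjusted p = 0.00163) and not at 3 days (log2 0.11, adjusted p = 0.15), where it was called without DMSO replicate 3 of that time (adjusted p = 0.0462). Without the 5 libraries with Col1a1, which leaves 1 library a group at 6 days, the 6-day calls of Bcl6 and Foxo1 were lost. Their log2 fold changes there were -0.83 and 0.25. Cd69, whose product removes S1pr1 from the cell surface, had 4 to 6 counts in WM-1119 libraries and 8 to 10 counts in DMSO libraries at 3 days. At 6 days it had 1 to 3 counts and 5 to 24 counts, and it was not tested. These counts are not scaled for depth, and each DMSO library of 6 days held more counts in total than each WM-1119 library of that time.

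Other receptors of B cells from the same class numbered 18, with 12 tested. At 3 days 4 rose and 1 fell, P2ry10, and at 6 days 6 rose and P2ry10 fell again, beside 24.4% and 30.8% of all genes called at these times. Gpr132, a receptor gene of lymphocytes whose reads are uncertain where it overlaps the noncoding gene Gm30461 over 5171 bases, averaged 72.4 ± 0.642 CPM with WM-1119 and 45.9 ± 1.86 CPM with DMSO at 3 days (edgeR, adjusted p = 5.51e-09) and 64.0 ± 2.33 and 39.7 ± 0.854 CPM at 6 days (adjusted p = 1.46e-09). P2ry10, a lysophosphatidylserine receptor gene, fell by 1.09 at 3 days and fell by 1.07 at 6 days on the log2 scale (edgeR, adjusted p = 0.000778 and 0.000744). The call at 6 days was lost without the 5 libraries with Col1a1 (log2 -1.08), which leaves 1 library a group. P2ry12, an ADP receptor gene that rose by 1.05 and 1.64 (adjusted p = 2.33e-05 and 1.88e-08), lies within Med12l, and reads of the pair cannot be assigned with certainty where strand is not given.

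The ligands and their enzymes were mostly scarce. Of 16 genes of prostanoid synthesis and removal 6 were tested; 2 of these rose at 3 days (Ptgr1 and Ptgr2) and 4 at 6 days (with Ptgs1 and Abcc4), and 0 fell, beside 11.8% and 15.7% of all genes called higher. Ptgr1, which encodes a reductase that inactivates prostaglandins and leukotrienes, averaged 240 ± 6.84 CPM with WM-1119 and 204 ± 8.37 CPM with DMSO at 3 days (edgeR, adjusted p = 0.000523) and 256 ± 11.1 and 190 ± 3.69 CPM at 6 days (adjusted p = 1.97e-07). Ptgs1, the constitutive cyclooxygenase gene, was called at 6 days (10.4 ± 1.34 CPM with WM-1119 and 7.20 ± 0.0528 CPM with DMSO, adjusted p = 0.00163), and Ptgs2, the inducible one, had at most 3 counts in any library. Ptgs1 was also called at 3 days without DMSO replicate 2 of that time (edgeR, adjusted p = 0.0406). Without the 5 libraries with Col1a1, which leaves 1 library a group at 6 days, its 6-day call was lost. Its log2 value was 0.62 there and 0.52 with all libraries. Abcc4, a transporter gene that overlaps the noncoding gene Gm41247 over 2640 bases, lost its 6-day call there too (log2 0.22, as with all libraries). Ptgr2, another prostaglandin reductase gene, had log2 fold changes of 0.17 and 0.14 near the threshold (adjusted p = 0.0215 and 0.0425). Its call at 3 days was lost without WM-1119 replicate 2 or DMSO replicate 3 of that time. Without the 5 libraries with Col1a1 it was lost there too (edgeR, adjusted p = 0.134). At 6 days Ptgr2 was called in 13 of 22 alternatives. It was not called with DESeq2 (adjusted p = 0.0572) or with no filter on low counts (edgeR, adjusted p = 0.0708). Nor was it called without any single WM-1119 library of 6 days, WM-1119 replicate 3 of 3 days or DMSO replicate 2 or 3 of 6 days. The 6-day call was also lost without the 5 libraries with Col1a1 (log2 0.155), which leaves 1 library a group.

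Of 12 other genes of S1P 7 passed the filter, and at each time 2 rose (Plpp2 with Sgpp1 at 3 days and with Spns2 at 6 days) and 1, Sgpl1, fell, beside 24.4% and 30.8% of all genes called. Plpp2, a lipid phosphate phosphatase gene, averaged 27.9 ± 2.18 CPM with WM-1119 and 19.98 ± 1.00 CPM with DMSO at 3 days (edgeR, adjusted p = 4.61e-05). At 6 days the means were 27.6 ± 1.59 and 20.1 ± 0.396 CPM (adjusted p = 5.03e-05). The 6-day call was lost without the 5 libraries with Col1a1, which leaves 1 library a group (log2 0.35, beside 0.46 with all libraries). Sgpl1, the lyase that degrades S1P, fell by 0.26 at 3 days and fell by 0.18 at 6 days on the log2 scale (edgeR, adjusted p = 0.00272 and 0.03). At 6 days the call was lost without any single WM-1119 library or without DMSO replicate 1 or 3 (highest adjusted p = 0.0875). It was also lost without the 5 libraries with Col1a1 (log2 -0.22). Sgpp1, an S1P phosphatase gene, had log2 fold changes of 0.20 at 3 days (edgeR, adjusted p = 0.039) and 0.18 at 6 days (adjusted p = 0.0506). At 6 days it was called in 10 of 22 alternatives, among them DESeq2 (adjusted p = 0.0381). With the replicate block in edgeR it was called there too (adjusted p = 0.00769, or 0.00144 in libraries of 6 days alone). At 3 days its call was lost without WM-1119 replicate 1 or 2 or any single DMSO library of that time, or without WM-1119 replicate 3 of 6 days (highest adjusted p = 0.162). Spns2, which encodes an S1P exporter and overlaps the noncoding gene Gm40194 over 4436 bases, was called at 6 days (log2 0.84, edgeR, adjusted p = 0.0166). The call was lost without WM-1119 replicate 3 or DMSO replicate 2 of that time (adjusted p = 0.107 and 0.0727). It was also lost without the 5 libraries with Col1a1 (log2 0.96). Spns2 had a log2 fold change of 0.69 at 3 days (edgeR, adjusted p = 0.0592) and was called there in 5 of 21 alternatives.

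Of 4 enzymes of the Gpr183 ligand 1 was tested, Hsd3b7, and 0 were called by edgeR (log2 0.17 at 3 days and -0.02 at 6 days). Of 20 other chemokine receptors 1 was tested, Ccrl2, and 0 were called by edgeR (log2 -0.41 at 3 days and -0.29 at 6 days).

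Cxcl12, the ligand of Cxcr4, was the single tested gene of 5 chemokine ligands, at a low level. It had 5, 4 and 0 counts in WM-1119 libraries of 3 days and 1, 5 and 0 counts in those of 6 days, against 24, 21 and 16 counts and 68, 32 and 33 counts in DMSO libraries of 3 and 6 days. Cxcl12 was called lower at 3 days (log2 -2.85 ± 0.53, edgeR, adjusted p = 0.000331) and at 6 days (log2 -3.55 ± 0.53, adjusted p = 2.01e-05), while Cxcr4 was higher at both. The size of this change rests on libraries at or near 0 counts and is no bound. For Cxcl12, WM-1119 against DMSO at 6 days, it was -5.33 without WM-1119 replicate 2 and -7.72 without the 5 libraries with Col1a1, where the WM-1119 library that stays is at 0. At 3 days it was -3.525 without WM-1119 replicate 1. Cxcl12 was called lower under all 21 alternatives at 3 days and all 22 at 6 days (highest adjusted p = 0.00366 and 0.00335).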

How the data were processed

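RNA was isolated on RNeasy columns and made into libraries with the TruSeq Stranded mRNA kit, per the labels' protocols. The deposited table holds raw counts per gene, which the authors made with featureCounts (no version given) on build mm10, per the submitters' processing notes. It also holds exon lengths. Aligner, strand setting and treatment of multi-mapped reads: not given in the sources used here. Overlaps with neighbouring genes are named for some genes only, and others overlap too. Of 27179 entries 874 carry no gene identifier (0.305% to 0.362% of the counts of a library) and were left out. Symbols of 25275 identifiers came from RefSeq.

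Counts were scaled by TMM, filtered by filterByExpr and fitted with edgeR 4.0.16 (glmQLFit with a robust prior, glmQLFTest; R 4.3.3) over all 12 libraries with 4 group means. P-values are two-sided and Benjamini-Hochberg adjusted over the 11997 genes tested, at a threshold of 0.05. The common biological coefficient of variation was 5.69%. CPM uses TMM-scaled library sizes, and RPKM divides it by exon length. The study calls the 3 libraries of a group biological replicates without naming a culture or day, and p-values reflect only the spread among those libraries, which may be technical. A permutation of 3 against 3 cannot give a p below 0.1.

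The receptors and lists were chosen with earlier results of these data known. Named genes of a list are up to 3 called members with the smallest p at each time, plus a set list (Klf2, Foxo1, Cd69, Bcl6, Rgs1, Gna13, Gnai2, Arhgef1 and Gnas). Some genes of the lists are not reported here. For each called receptor the 2 genes most like it by Pearson r were named. Rgs2, Arhgef12, Gnaq, Gng10, Gng12, Rap1a, Rap1b, Prkacb, Prkar1a, Pde4a, Pde7a, Pde7b, Pde8a, Crem, Ccrl2, Hsd3b7 and Ptgs2 were named after their values were seen. Promoters (RefSeq, GRCm38.p6) were found for 7 of the 10 receptors, not for Ccr7, S1pr1 and Cxcr5. The fit was tested on simulated data. Alternatives were RLE and upper-quartile scaling, other filters on low counts, DESeq2 1.42.0, limma voom 3.58.1, a fit restricted to the libraries of a comparison, a replicate block, and removal of each library in turn. Removal of the libraries with Col1a1, a block within 6 days and the alternatives for genes of the lists were added after seeing the data. Same-numbered libraries of 6 days deviated together over genes (r = 0.193, 0.144 and 0.243). In no other pair of groups was every r above 0.1. Libraries of different numbers were not compared and the sample titles name no pairing, so whether the numbers pair libraries was not tested.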

Additional observations from a re-analysis of the deposited data

Results flagged for a closer look

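Gnb4 encodes a Gβ subunit and overlaps the gene Mfn1 over 639 bases. It was the single gene of the pathway lists whose response to WM-1119 differed between the times by a test of the difference itself. It had 17.8, 19.0 and 17.5 CPM in WM-1119 libraries at 3 days, against 25.4, 25.1 and 24.3 CPM in DMSO libraries. At 6 days it had 28.2, 27.4 and 25.9 CPM in WM-1119 libraries, against 24.0, 26.3 and 27.6 CPM in DMSO libraries. The libraries of the treatments were apart at 3 days and overlapped at 6 days. The log2 fold change was -0.46 ± 0.07 at 3 days and 0.07 ± 0.07 at 6 days, and the difference, 6 days minus 3 days, was 0.53 ± 0.10 (SE; edgeR, adjusted p = 0.0123). It was not called without WM-1119 replicate 3 of 3 days (0.50, adjusted p = 0.0509), without WM-1119 replicate 1 of 6 days (0.49, adjusted p = 0.0582) or without the 5 libraries with Col1a1 (0.41, adjusted p = 0.831).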

How the results depend on the processing

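Ptgir higher at both times, Cxcr4 higher at 3 days and Ccr7 lower at 6 days were called under every alternative run. Without the 5 libraries with Col1a1, which leaves 1 library a group at 6 days, 1 receptor was higher at that time (Ptgir); the 1 receptor lower at 3 days there was Gpr183, not Ccr7. With 1 library of a group left out, receptors called lower at 3 days numbered 0 to 1, called higher in the difference between the times 0 to 1, and called higher in WM-1119 libraries of 6 against 3 days 0 to 1. Ptgir was called in the difference with no filter on low counts (1 receptor, log2 1.04, adjusted p = 0.0209), with DESeq2 (1 receptor, log2 1.04) and without WM-1119 replicate 1 of 3 days (1.20, adjusted p = 0.0326) or DMSO replicate 3 of 6 days (1.24, adjusted p = 0.0227). Ccr7 was called in DMSO libraries of 6 against 3 days with no filter (1 receptor, adjusted p = 0.028) and with DESeq2 (1 receptor). The cause was not tested.

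Some small log2 differences changed sign, none of them called either way except Klf2 at 6 days, called higher without DMSO replicate 3 of that time (0.324, adjusted p = 0.0166). Without single libraries they ran for S1pr2 from -0.076 to 0.175 at 3 days, from -0.095 to 0.241 in the difference and from -0.181 to 0.155 in WM-1119 libraries of 6 against 3 days. They ran for Cxcr4 from -0.092 to 0.006 in the difference, from -0.098 to 0.001 in WM-1119 libraries of 6 against 3 days and from -0.038 to 0.022 in DMSO libraries, and in the WM-1119 comparison for S1pr1 from -0.014 to 0.116 and for S1pr4 from -0.007 to 0.065. Without the libraries with Col1a1, S1pr2 stood at -0.076 at 3 days, S1pr1 at 0.022 at 6 days and 0.057 in the difference, Ptger4 at 0.021 and Cxcr4 at 0.06 in DMSO libraries of 6 against 3 days, and Gnb4 at -0.091 and Klf2 at -0.024 at 6 days.

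Over all genes, removal of the libraries with Col1a1 gave 1516 calls at 6 days (3693 with all libraries), 5 in the difference (87), 268 in WM-1119 libraries of 6 against 3 days (674) and 537 in DMSO libraries (97). Without single libraries these last 3 counts ran from 46 to 217, 309 to 1100 and 41 to 158. Fitting only the libraries compared gave 1117 for WM-1119 and 47 for DMSO, and for DMSO no filter gave 173, DESeq2 171 and the replicate block 167. The replicate block, over all libraries or those of 6 days alone, changed no receptor call (at 6 days 4 higher and 1 lower). Among the genes of the lists it was run on, it added Sgpp1 at 6 days and Spns2 at 3 days (log2 0.699, edgeR, adjusted p = 0.0366). Other alternatives also called Sgpp1 and Spns2 at those times. Low counts limit Ptger2, Gpr183 and Cxcr5.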
